A study of Drosophila melanogaster with 10 samples.

Results

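The comparison described here sets male larvae of the third instar, of genotype y w, atf3[76], against larvae of the control stock y w, across all genes. It uses 4 of the 10 libraries of the series, 2 per genotype, taken by their column labels. RNA-seq of total RNA from whole bodies was used, and the design measures each of the mutant genotypes relative to y w. Both groups carry the visible markers yellow and white, so the genotypes differ by name in the atf3[76] allele alone, which is hereafter written atf3[76]. The labels give no molecular lesion for atf3[76], no age in hours and no number of larvae per library. The labels speak of biological replicates but name no separate cultures. The p-values given therefore cover the spread between these libraries, which may be partly technical.

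Of 13995 genes in the table, 10983 were above the lowest deposited value in at least 1 of the 4 libraries and 9108 in all 4. Values are FPKM, fragments scaled to transcript length and library size, and the lowest value is 1 in every library. A listing at 1 is therefore a floor and not a level. Some genes that every cell uses stand there in single libraries. Eno, which encodes the glycolytic enzyme enolase, was listed at 1 and at 238.4 FPKM in the atf3[76] libraries, against 321 and 226.7 FPKM in the y w libraries. Genes above 1 in all 4 libraries are therefore kept apart from genes at the floor throughout.

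Atf3 is a basic leucine zipper transcription factor, a relative of the AP-1 proteins Jun and Fos. The series is titled as a study of Atf3 in immune and metabolic homeostasis. Flies respond to microbes through Toll and Imd, a pair of pathways that end in NF-kB factors and switch on secreted peptides, among them the Bomanins downstream of Toll. The larval midgut makes lysozymes, which break bacterial cell walls, and secreted PGRP amidases, which cut peptidoglycan and so dampen Imd signalling in the gut.

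The Atf3 gene itself, listed as A3-3 (X, 1136772 to 1168682, BDGP R5), had 6.09 and 13.7 FPKM in atf3[76] and 3.28 and 4.14 FPKM in y w. Its log2 fold change was 1.12 ± 0.39 (SE), not past the threshold (limma, adjusted p = 0.445). Since the lesion is not stated, this level is no check of the label. Rel, the NF-kB factor of the Imd pathway, had 21.4 and 21.0 FPKM in atf3[76] and 14.2 and 10.3 in y w, a log2 fold change of 0.76 ± 0.36 that did not pass (limma, adjusted p = 1.00). Its gene overlaps another. For foxo, a forkhead transcription factor restrained by insulin, the values were 4.30 and 8.73 FPKM in atf3[76], against 7.64 FPKM and a listing at 1 in y w. The marker genes y and w were listed at 1 in all 4 libraries.

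The libraries also differed within each genotype. Relative depth, read from the steps of small RNA values of 1 gene length, was 0.651 and 0.955 in atf3[76] and 0.518 and 1 in y w, on a scale where y w replicate 2 is 1. By this estimate, which rests on the lowest of 4 to 6 values per library, the replicate 1 library of each genotype was the shallower one. Over the 9108 genes above the floor, the median log2(FPKM + 1) was 3.23 and 3.34 in atf3[76] and 3.28 and 3.02 in y w, and the median log2 fold change of all genes was 0.11 above 0. Markers of male larvae were present. The male-specific RNA roX1 was at 22.8 and 54.0 FPKM in atf3[76] and 24.4 and 37.4 FPKM in y w. All 7 female or adult genes were at the floor in all 4 libraries. Since these are genes of adults, their listings do not tell the sex of larvae. Some muscle genes, Mhc, up and wupA among them, were also listed at 1 in every library, while Act57B stood between 1737 and 2211 FPKM, so an absent marker here need not mean an absent tissue.

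Among the 9108 genes above the floor in all 4 libraries, 51 were past an adjusted p of 0.05 in limma on log2(FPKM + 1), which is 0.560% of those tested. Of these, 41 were higher (0.450%) and 10 lower (0.110%) in atf3[76]. The genes with the largest falls were 4 lysozymes and 2 PGRP amidases, and those with the largest rises were 2 Bomanins. After each library was centred on its median, 7 genes were called, 3 higher and 4 lower: the Bomanins IM1, IM3 and CG5791, and the lysozymes LysB, LysC, LysD and LysE. The other 44 calls below were lost by that centring. It moved each log2 fold change by −0.14 and changed the p-values, so that CG5550, for example, stood at 3.38 after centring, against 3.52 as deposited. Falls moved further from 0 and could be lost as well. PGRP-SC1a stood at −3.655 after centring, against −3.515 as deposited, and did not pass (limma, adjusted p = 0.164). None of the 51 changed sign in any setting tried. In a fit over all 10983 genes, 4 were called (0.0364%): LysD, LysB and LysE lower, and mge higher. There the adjusted p was 0.0424 for LysD, 0.148 for IM3 and 0.406 for PGRP-SC1a (limma). Adjusted p-values given for single genes are those of the fit over 9108 genes, unless another is named. They are far smaller, so they depend on which genes are fitted together. The gene mge was at the floor in both y w libraries, so its y w values had no spread.

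**Figure D1:**
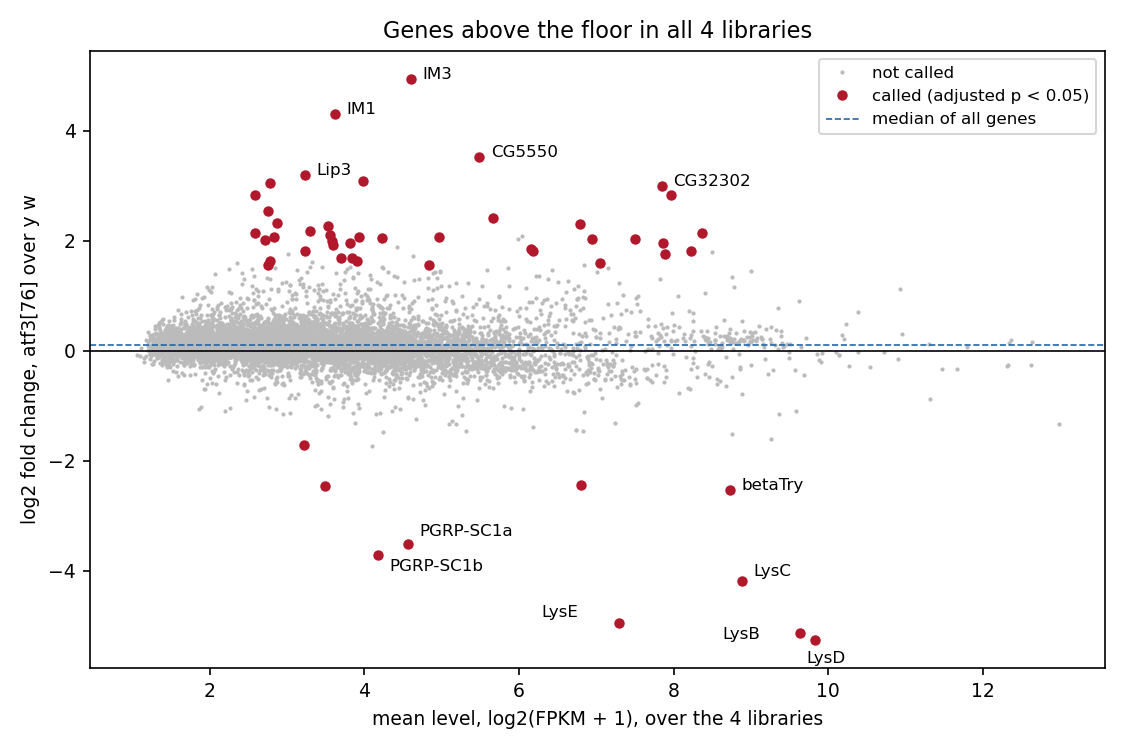
Log2 fold change of atf3[76] over y w (vertical axis) against mean log2(FPKM + 1) over the 4 libraries (horizontal axis) for the 9108 genes above the floor in all of them. Red points are the 51 genes past an adjusted p of 0.05, and the dashed line is the median of all genes at 0.11. The lysozymes lie lowest and the Bomanins IM3 and IM1 highest.

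Called genes were spread unevenly over expression levels. None of 2683 genes with a mean below 5 FPKM was called. An unadjusted p under 0.05 was reached by 376 genes of any level (4.13%), 292 of them higher (3.21%) and 84 of them lower (0.922%). Among the 417 genes with a mean of at least 100 FPKM, 16 were called, which is 3.84%, and 10 of them were higher. All 51 called genes had no overlap between the groups. Of all 9108 genes, 1559 had both atf3[76] libraries above both y w libraries (17.1%) and 568 had both below (6.24%). Of the 51 genes, 17 overlap another gene by position, and since strand is not stated their values are uncertain. They are LysC, LysD, LysE, betaTry, CG4783, Kaz1-ORFB, Ddc, Kmn1, CG9509, CG2157, CG13461, CG5506, CG11854, CG4793, CG32302, CG5791 and Lip3.

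The lysozymes that fell form a cluster on 3L between 1207370 and 1213406. LysD had 133.8 and 158.1 FPKM in atf3[76], against 5482 and 5715 FPKM in y w. LysC had 115.8 and 103.6 FPKM in atf3[76], against 1849 and 2213 in y w, a log2 fold change of −4.19 ± 0.36 (SE; limma, adjusted p = 7.64e-08). Summed over LysB, LysC, LysD and LysE, FPKM was 417.6 and 415.4 in atf3[76] and 13055 and 13400 in y w. That sum took 0.114% and 0.136% of all FPKM in atf3[76] and 3.47% and 4.5% in y w. The members are alike in sequence, so the split of fragments among them is uncertain. The fall was not shared by all genotypes of the series that carry atf3[76]. LysB had 3706 and 5642 FPKM with dfoxo[25J13]/+ and 4894 and 5495 FPKM with rel[E20]/+. With atf3[A]/+ it had 211.9 and 210.9 FPKM. LysC, LysD and LysE showed the same pattern, and its cause was not tested.

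Of 17 lysozyme genes in the table, 10 were above the floor in all 4 libraries, and none besides the cluster was called. LysS, a lysozyme gene of the same family, had 1350 and 600.2 FPKM in atf3[76] and 1710 and 521.6 FPKM in y w, with overlapping groups. LysX had 42.8 and 25.2 FPKM in atf3[76], against 16.6 FPKM and a listing at 1 in y w, so both atf3[76] values lay above y w. The gene mwh lies in the span of the cluster and had 2.12 and 1.89 FPKM in atf3[76] and 2.67 and 5.55 FPKM in y w (limma, adjusted p = 1.00).

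A pair of adjacent peptidoglycan recognition genes on 2R also fell. PGRP-SC1a (4597267 to 4597825) had 9.78 and 3.50 FPKM in atf3[76] and 62.9 and 98.3 FPKM in y w. PGRP-SC1b (4600948 to 4601587) had 6.23 and 2.43 FPKM in atf3[76] and 49.6 and 82.9 FPKM in y w. The log2 fold changes were −3.52 ± 0.41 for PGRP-SC1a and −3.71 ± 0.41 for PGRP-SC1b (SE; limma, adjusted p = 1.41e-05 and 4.76e-06). The 2 genes are near-identical copies, so their split is uncertain. PGRP-SC2, another amidase of this group, lay the other way, at 285.3 and 133.5 FPKM in atf3[76] and 90.8 and 47.4 FPKM in y w, without passing the threshold (log2 fold change 1.56 ± 0.41; limma, adjusted p = 0.118).

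The remaining genes called lower were betaTry, CG4783, CG3819 and Kaz1-ORFB. The trypsin gene betaTry had 291 and 106.1 FPKM in atf3[76] and 1251 and 829.6 FPKM in y w, a log2 fold change of −2.53 ± 0.42 (SE; limma, adjusted p = 0.00205). CG3819 had 56.4 and 38.9 FPKM in atf3[76] and 239 and 279.3 FPKM in y w, with a log2 fold change of −2.44. CG4783 had 2.34 and 5.92 FPKM in atf3[76] and 20.3 and 31.7 FPKM in y w. Kaz1-ORFB had 3.51 and 4.78 FPKM in atf3[76] and 18.0 and 13.9 FPKM in y w, the smallest of the called falls with a log2 fold change of −1.72 ± 0.36 (SE; limma, adjusted p = 0.0216).

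**Figure D2:**
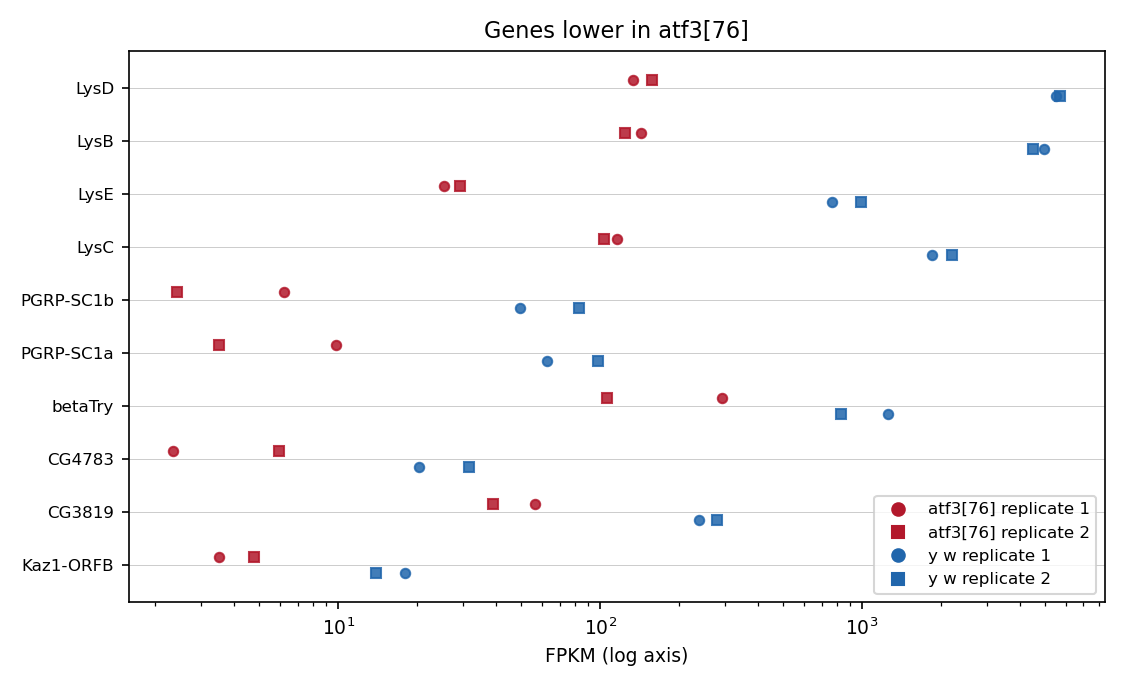
FPKM (log axis) of the 10 genes called lower in atf3[76], with 1 point per library: atf3[76] in red above y w in blue, circles for replicate 1 and squares for replicate 2. In each gene both atf3[76] libraries lie below both y w libraries, and in LysD the gap runs between 158.1 and 5482 FPKM.

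The digestive proteases held 1 call. Of 28 midgut trypsins and chymotrypsins above the floor, betaTry alone was called. The median log2 fold change was −0.04, with 12 of the 28 above 0. Over all genes the median was 0.11, with 6423 of 9108 above 0. In Jon65Aiv, a serine protease of the Jonah family, atf3[76] had 10849 and 2926 FPKM and y w had 8335 and 2930 FPKM. The replicate 1 library was thus the high one in both genotypes. Both atf3[76] libraries lay below both y w libraries in 7 of the 28, or 25.0%, against 5.73% of all genes above the floor in at least 1 library. Among them Jon99Fii had 485.5 and 254.5 FPKM in atf3[76] and 1932 and 589.1 FPKM in y w, and epsilonTry had 414 and 154.3 FPKM in atf3[76] and 890 and 597.4 FPKM in y w, neither past the threshold (limma, adjusted p = 0.179 and 0.146). In whole larvae, fewer cells of a type and less RNA per cell cannot be told apart. Of the 8 midgut markers, 4 were called lower, LysB, LysD, LysE and betaTry, and the summed FPKM of the 8 was 11715 and 3677 in atf3[76] and 21041 and 14980 in y w. Without the lysozymes the sum over the other 5 markers was 11413 and 3366 FPKM in atf3[76] and 9835 and 3792 FPKM in y w, with overlapping groups. Jon65Aiv makes up most of that sum. Of these 5, betaTry was called lower and the other 4 had a log2 fold change above 0, of which Amy-d and Amy-p had an unadjusted p under 0.05. In Amy-p, however, the groups overlap and only 1 y w library was low.

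The genes that rose were led by Bomanins. IM3 (BomS3) had 100 and 176.9 FPKM in atf3[76], against 5.18 and 2.09 FPKM in y w, a log2 fold change of 4.94 ± 0.40 (SE; limma, adjusted p = 3.89e-08). IM1 (BomS1) had 40.4 and 70.1 FPKM in atf3[76], against 2.57 and 1.14 in y w, with a log2 fold change of 4.29 ± 0.39 (SE; limma, adjusted p = 2.02e-07). CG5791 (BomBc3) on 3R had 18.9 and 18.6 FPKM in atf3[76] and 1.43 and 1.34 FPKM in y w (log2 fold change 3.05 ± 0.36; limma, adjusted p = 1.41e-05). CG18067 (Bombardier, Bbd), a secreted protein on which short Bomanins depend, had 103.2 and 130.1 FPKM in atf3[76], against 23.8 and 18.5 FPKM in y w (log2 fold change 2.41 ± 0.36; limma, adjusted p = 0.000550).

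Most genes of this kind were at the floor in 1 or both y w libraries and so outside that test. By their current names, a grouping made after values were seen, the table holds 16 genes of the Bomanins, the Daisho peptides (Dso), Baramicin A (BaraA), IM10 and Bombardier, and only 4 of them are above the floor in all 4 libraries. In y w, 12 were at the floor in at least 1 library and 6 in both. In 15 of the 16, both atf3[76] libraries lay above both y w libraries, where 16.8% of all genes above the floor in at least 1 library did. The exception was CG18107 (BomS4), at 11.8 FPKM in atf3[76] replicate 2 and at 1 elsewhere. Where both y w libraries are at the floor, any 2 atf3[76] values over 1 lie above them. With the grouping made after values were seen, the count of 15 is therefore a description and no test. Summed over the 16 genes, FPKM was 517.2 and 1059 in atf3[76] and 56.1 and 36.9 in y w. On 2R, IM1, CG18107, CG15067, IM2 and IM3 lie side by side between 14271456 and 14275995. In that run IM2 (BomS2) had 39.6 and 44.5 FPKM in atf3[76], against 2.02 FPKM and a listing at 1 in y w. The atf3[76] libraries differed among themselves in several members, with IM14 (Dso2) at 38.2 and 310.8 FPKM and CG15068 (BomS6) at 13.4 and 88.8 FPKM, against at most 9.56 and 2.83 FPKM in y w.

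**Figure D3:**
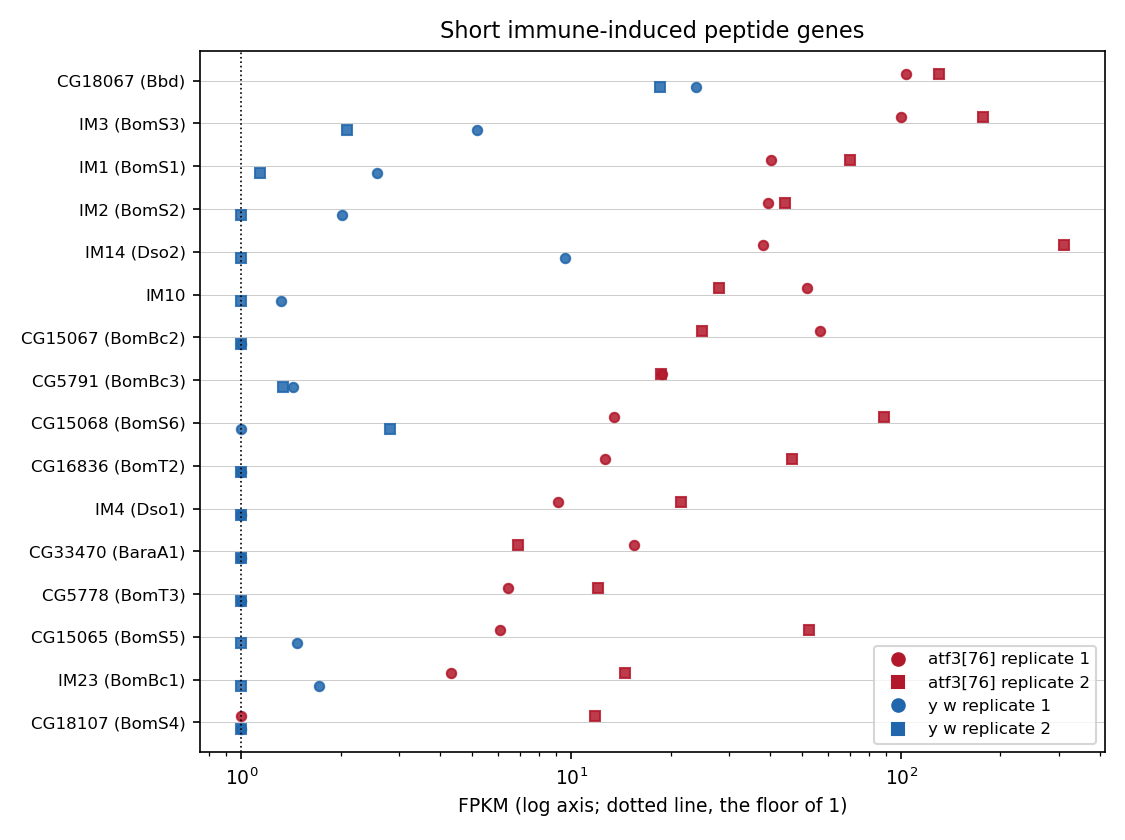
FPKM (log axis) of the 16 genes of the Bomanin, Daisho and Baramicin group with IM10 and Bombardier in each library: atf3[76] in red above y w in blue, circles for replicate 1 and squares for replicate 2, with a dotted line at the floor of 1. The atf3[76] points lie right of the y w points in 15 of the 16 genes.

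Antimicrobial peptides outside that group gave a mixed picture. Drs and dro2 (Drsl2), drosomycin-type antifungal peptides, stood far above y w, with Drs at 95.1 and 138.3 FPKM in atf3[76], against 2.66 FPKM and a listing at 1 in y w, and dro2 at 35.05 and 51.97 FPKM in atf3[76] and listed at 1 throughout y w. Of the 10 antimicrobial peptide genes above the floor in all 4 libraries, none was called, and 4 were higher at an unadjusted p under 0.05, where 3.21% of all genes were, namely AttA, AttB, AttC and Dro. AttC, an attacin active against Gram-negative bacteria, had 21.9 and 8.49 FPKM in atf3[76] and 4.49 and 2.50 FPKM in y w (log2 fold change 1.75 ± 0.41; limma, adjusted p = 0.0569). DptB, a diptericin, had 12.0 and 12.9 FPKM in atf3[76] and 16.2 and 16.5 FPKM in y w, and Mtk, the antifungal metchnikowin, had 2.60 and 8.06 FPKM in atf3[76] and 4.70 and 8.51 FPKM in y w. Over the list of 16 genes above the floor somewhere, 7 had both atf3[76] libraries above y w (43.8%) and 2 had both below (12.5%). The shares over all genes above the floor in at least 1 library were 16.8% and 5.73%.

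The lists of receptors and signalling genes upstream held 2 calls, where 0.560% of all genes above the floor in all 4 libraries were called. Of 17 Toll pathway genes above the floor in all 4 libraries, none was called. Their median log2 fold change was 0.23, against 0.11 over all genes, and 14 of the 17 were above 0. After centring, 13 of the 17 were above 0 and the median was 0.09. Of all 9108 genes, 6423 were above 0 as deposited and 4027 after centring. PGRP-SD, a secreted recognition protein, had 24.6 and 28.1 FPKM in atf3[76] and 13.5 and 11.9 FPKM in y w (limma, adjusted p = 0.506). Dif, an NF-kB factor of Toll signalling, had 8.30 and 8.96 FPKM in atf3[76] and 5.30 and 5.18 in y w. The inhibitor cact stood at 25.8 and 21.2 FPKM in atf3[76] and 25.98 and 19.54 in y w. Of 18 Imd pathway and PGRP genes above the floor, PGRP-SC1a and PGRP-SC1b were the only calls, and the median was 0.27. Among genes above the floor in at least 1 library, 33.3% of Toll genes had both atf3[76] libraries above both y w libraries. The share was 42.1% for Imd and PGRP genes and 16.8% for all genes. Both atf3[76] libraries lay below in 5.56%, 10.5% and 5.73%, in that order. PGRP-LA, a membrane-bound family member, had 17.4 and 13.9 FPKM in atf3[76] and 6.66 and 3.37 FPKM in y w, just short of the threshold (log2 fold change 1.52 ± 0.38; limma, adjusted p = 0.0808).

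The other genes that rose include enzymes, a lipid-binding protein and membrane proteins. Lip3, a lipase, had 62.7 and 11.7 FPKM in atf3[76] and 2.62 and 1.68 FPKM in y w (log2 fold change 3.19 ± 0.50; limma, adjusted p = 0.000849). Of 11 lipases above the floor it was the only call, and the list's median was −0.10. CG15829 (Acbp6), an acyl-CoA binding protein, had 450.4 and 1063 FPKM in atf3[76] and 117.4 and 207.4 FPKM in y w (log2 fold change 2.14; limma, adjusted p = 0.00984). CG3292 (Alp7), an alkaline phosphatase, had 11.4 and 33.9 FPKM in atf3[76] and 2.50 and 5.08 FPKM in y w. Ddc, dopa decarboxylase, which makes dopamine and feeds cuticle hardening, had 10.9 and 10.2 FPKM in atf3[76] and 3.26 and 2.61 FPKM in y w (log2 fold change 1.56 ± 0.36; limma, adjusted p = 0.0433). Ddc, CG15829, CG3292, CG18067 and the tetraspanin genes below lie outside the rule for naming and were chosen after their values were seen.

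Some of the most abundant risers carry only a CG number. CG32302 had 781.9 and 538.6 FPKM in atf3[76], against 90.9 and 71.5 FPKM in y w (log2 fold change 2.99; limma, adjusted p = 2.66e-05). CG13323 had 746.4 and 589.6 FPKM in atf3[76], against 113.2 and 75.8 in y w (log2 fold change 2.83; limma, adjusted p = 6.83e-05). CG5550 had 160.6 and 141.5 FPKM in atf3[76], against 8.62 and 17.2 in y w (log2 fold change 3.52; limma, adjusted p = 4.76e-06). The replicate values of each lay much closer together than the groups did. Lower in level were CG16775 at 58.5 and 34.8 FPKM in atf3[76] and 4.18 and 4.68 in y w, CG4793 at 10.8 and 20.6 in atf3[76] and 1.16 and 1.38 in y w, and CG13215 at 17.9 and 12.9 in atf3[76] and 1.07 and 2.78 in y w. The log2 fold changes of these were 3.09, 2.82 and 2.53 in that order. The tetraspanin genes Tsp42Eb and Tsp42Ec, which encode membrane proteins with several spans, rose too, with 357.2 and 167.8 FPKM for Tsp42Eb in atf3[76] and 55.9 and 42.7 FPKM in y w.

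**Figure D4:**
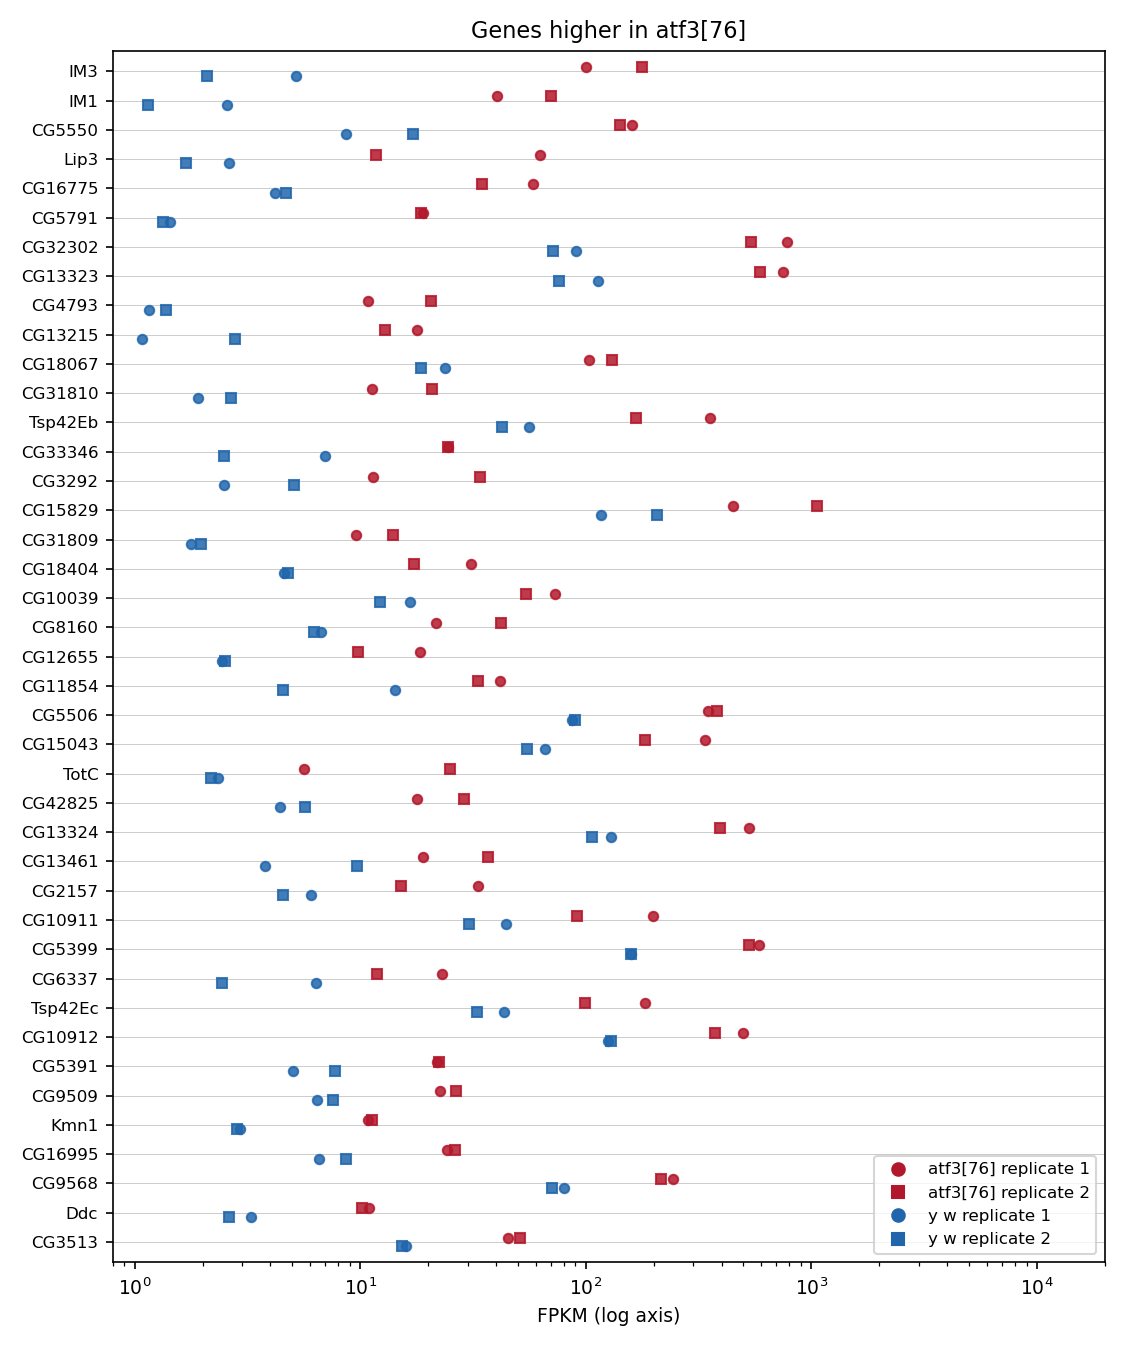
FPKM (log axis) of the 41 genes called higher in atf3[76], ordered by log2 fold change, with 1 point per library: atf3[76] in red above y w in blue, circles for replicate 1 and squares for replicate 2. The log2 fold changes run between 4.94 in IM3 and 1.56 in CG3513, and in every gene both atf3[76] libraries lie above both y w libraries.

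Some called genes lay beside one another. Within gaps of at most 10000 bp, 16 of the 51 fell into 7 clusters, and within each cluster all called genes moved in 1 direction. Beside the lysozyme, PGRP and Bomanin runs, these were CG13323 with CG13324, CG10911 with CG10912, CG5506 with CG16775, and CG31809 with CG31810. Their joint direction was not tested, and copies that are alike in sequence can share fragments. How many of all tested genes lie as near to one another was not counted, so the 16 are no measure of an excess. The highest share of calls on a chromosome arm was on 2R, with 16 of 1864 genes (0.858%), against 0.560% of all 9108 genes. On 3L, which held 1772 of the 9108, were 6 of the 10 falls, and 4 of these were the lysozyme cluster.

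Stress and wound responses were examined through 2 lists. In the AP-1, ATF and JNK list, none of 19 genes was called, 15 were above 0 and the median was 0.16. After centring, 10 were above 0. Of all 9108 genes, 6423 were above 0 as deposited and 4027 after centring. The JNK phosphatase puc, a common readout of JNK signalling, had 11.3 and 11.6 FPKM in atf3[76] and 6.76 and 6.56 FPKM in y w, without overlap (limma, adjusted p = 1.00). Jra, the fly Jun, had 24.9 and 20.1 FPKM in atf3[76] and 15.8 and 12.8 FPKM in y w, and kay, the fly Fos, had 14.3 and 16.8 FPKM in atf3[76] and 15.1 and 13.3 in y w. Of 5 Turandot and JAK-STAT genes above the floor, TotC was called. TotC, a secreted stress peptide, had 5.61 and 24.9 FPKM in atf3[76] and 2.35 and 2.17 FPKM in y w (log2 fold change 2.005 ± 0.46; limma, adjusted p = 0.0433). TotA had 125.5 and 459.1 FPKM in atf3[76] and 102 and 101.7 FPKM in y w, and the inhibitor of the pathway Socs36E had 7.65 and 6.80 FPKM in atf3[76] and 4.04 and 2.70 FPKM in y w, neither past the threshold (limma, adjusted p = 0.526 and 0.680).

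The gut lining and lysosomal lists lay on the higher side. Of 19 peritrophic matrix and mucin genes, which build the lining of the gut and other chitin layers, none was called and 6 were higher at an unadjusted p under 0.05, where 3.21% of all genes were. Their median log2 fold change was 0.53, and 0.39 after centring. Muc26B had 277.3 and 203.5 FPKM in atf3[76] and 98.2 and 71.4 FPKM in y w (limma, adjusted p = 0.0790), and obst-H had 20.4 and 21.7 FPKM in atf3[76] and 6.90 and 7.47 in y w (limma, adjusted p = 0.0808). In the autophagy and lysosome list, none of 25 genes was called, 22 were above 0, and 15 after centring. Over all 9108 genes those counts above 0 were 6423 and 4027. Its lowest unadjusted p was for Cp1, the cathepsin L protease, at 140.1 and 119.9 FPKM in atf3[76] and 79.8 and 56.9 in y w.

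Lists of energy metabolism lay on the lower side in small steps. None of the 30 oxidative phosphorylation genes above the floor was called or had an unadjusted p under 0.05, and all 30 had a log2 fold change below 0, with a median of −0.37, against 0.11 over all genes, of which 2685 of 9108 were below 0. The median was −0.51 after centring and −0.43 after quantile normalization. ATPsyn-beta, the catalytic subunit of the ATP synthase, had 335.8 and 396.4 FPKM in atf3[76] and 420.5 and 619.1 in y w. In the vacuolar ATPase, the proton pump of acid compartments, 17 of 19 genes were below 0 with a median of −0.25. In glycolysis 11 of 12 were below 0 with a median of −0.26, and in fatty acid oxidation 14 of 18 with −0.19. Single genes stood further out without passing, with CG3902 of fatty acid oxidation at 85.4 and 68.5 FPKM in atf3[76] and 193.2 and 144.2 FPKM in y w (limma, adjusted p = 0.355).

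Ribosomal protein and proteasome lists had small positive medians, which were smaller after centring. The median of all genes also fell, from 0.11 to −0.03, and those above 0 from 6423 to 4027 of 9108. Of 91 cytoplasmic ribosomal protein genes, 83 were above 0 with a median of 0.19, and 65 were after centring, with 0.05. Of 40 proteasome genes, 37 were above 0, and 23 after centring, with medians of 0.16 and 0.02. Among 64 cytochrome P450 genes and 19 glutathione transferases none was called. Among the P450 genes Cyp12d1-d had 12.1 and 19.7 FPKM in atf3[76] and 34.5 and 41.8 in y w, and Cyp6t1 had 10.8 and 11.4 FPKM in atf3[76] and 6.75 and 2.41 in y w (limma, adjusted p = 0.225 and 0.324). Lcp65Ab1, a larval cuticle protein, had 4816 and 5347 FPKM in atf3[76] and 13155 and 12582 in y w, without passing the threshold (log2 fold change −1.34 ± 0.36; limma, adjusted p = 0.118). Thor, the translation inhibitor 4E-BP that FOXO switches on, had 149.6 and 131.2 FPKM in atf3[76] and 80.0 and 79.3 FPKM in y w (limma, adjusted p = 0.962).

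**Figure D5:**
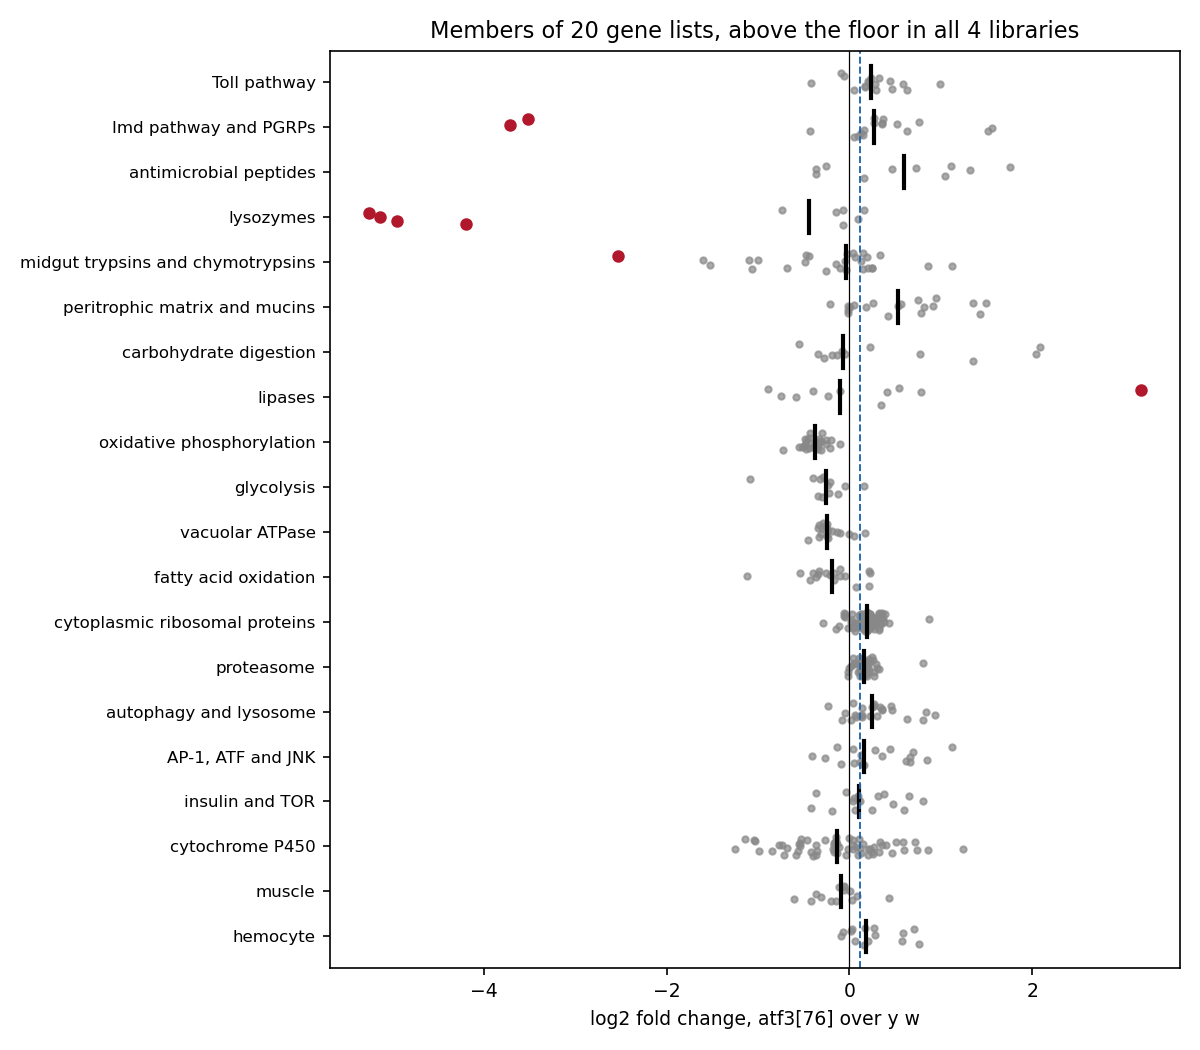
Log2 fold change of atf3[76] over y w (horizontal axis) for the members of 20 gene lists that were above the floor in all 4 libraries. Grey points are genes that did not pass, red points genes past an adjusted p of 0.05, black bars list medians and the dashed line the median of all genes at 0.11. All 30 oxidative phosphorylation genes lie below 0, and the lysozyme list holds 4 red points far to the left.

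In the amylase genes a single library stood apart. Amy-p, which digests starch, had 110.1 and 146.1 FPKM in atf3[76] and 110.8 and 7.71 FPKM in y w, so the 2 groups overlap and only y w replicate 2 is low. Without y w replicate 1, Amy-p and Amy-d were called higher with log2 fold changes of 3.88 and 3.89 (limma, adjusted p = 0.0317). These are near-identical copies. Only 8 genes were called without y w replicate 1 and 8 without y w replicate 2, and 5 of the 51 were called whichever of the 4 libraries was left out: LysB, LysC, LysD, LysE and IM3.

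Genes at the floor in both libraries of 1 genotype are given here as listings, without a fold. The fit over all 10983 genes did include them, and its call of mge was made against such a floor. In 92 genes (0.657% of the table) both atf3[76] libraries were above 1 while y w stood at the floor. The reverse held in 30 genes (0.214%). With at least 5 FPKM asked of both libraries of the other genotype, the counts were 14 and 5, and 2 and 4 of these were small RNA genes. Immune peptides were among the highest of the first kind, with dro2, CG15067 (BomBc2), CG16836 (BomT2), IM4 (Dso1) and CG33470 (BaraA1) among its first 10. The others were mge, CG32549, CG32698, aru and CG6276. For mge, which serves protein import into mitochondria, the values were 40.5 and 41.4 FPKM in atf3[76], against listings at 1 in y w. In the 6 other libraries of the series mge stood between 30.3 and 49.8 FPKM, and its overlapping neighbour ida was also listed at 1 in y w alone. CG32549 (Nt5b) had 30.8 and 19.3 FPKM in atf3[76] and CG32698 (CARPB) had 14.0 and 12.3, each with listings at 1 in both y w libraries.

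In the reverse direction the levels were low. The highest named gene was dlg1, which encodes a scaffold of cell junctions and synapses, listed at 1 in both atf3[76] libraries and at 7.31 and 7.38 FPKM in y w. In the 6 other libraries dlg1 was at 12.0 and 7.59 FPKM in 2 and at 1 in 4, so its listings changed within genotypes too. The next were CG14369, at 1 in atf3[76] and 2.51 and 2.60 FPKM in y w, and CG9593, at 1 in atf3[76] and 2.70 and 2.31 FPKM in y w. CG34187, CG31089, CG13877, Scgdelta, CG5521, CG42302 and CG15661 followed, none of them above 5.54 FPKM in any y w library.

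The authors' deposited table carries a call for each gene. It lists 661 genes as up and 173 as down in atf3[76], and all 41 genes called higher here are among the first and all 10 called lower among the second. Both sets of calls come from the same FPKM values, so this overlap is no separate support. The calls made here had log2 fold changes of at least 1.556 or at most −1.722. By the authors' calls, CG11407 with a deposited fold of −1.49 is not changed and spz6 with −1.51 is down. How the authors' calls were set is not known from the labels or headers.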

How the data were processed

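Transcript levels of 2 atf3[76] and 2 y w libraries were compared. The deposited table holds FPKM made by the authors with TopHat 1.3.2 and Cufflinks 1.1.0 on BDGP R5 (dm3), per the submitters' processing notes. The sources used here give no annotation, strandedness or filter. The authors also deposited a fold change, a score per gene in which falls are negative, and a call of regulation. The members and gene lists (43 lists) were chosen with earlier results of these data known.

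Of 14148 records, 94 repeated symbols were collapsed to the record of highest mean, which left 13995 genes, and current symbols were found by identifier for 13267. The lowest value is 1, and what was placed there is not stated. Read totals are unknown. Relative depth was estimated from small RNA genes of 1 length. The lowest value in each library was taken as 1 fragment, which was not checked by other means. All 4 to 6 values per library were whole multiples of it within 0.03, the lowest by definition. No interval can be given from FPKM alone.

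Groups were compared on log2(FPKM + 1) with limma 3.58.1 (R 4.3.3), a scale that understates the change of low genes. There were 2 fits, over genes above 1 in at least 1 library and over genes above 1 in all 4, with Benjamini-Hochberg adjustment and a threshold of 0.05. The script was tested on simulated data. Lists are described by counts and medians, without a test of the list. Always named are Atf3, foxo, Rel, y and w. Also named are genes called over all genes, the 10 largest called changes in each direction among genes above the floor, and the 10 floor genes of highest lower value in each direction. From each list, its called members and up to 4 of lowest p with a mean of at least 5 FPKM in the higher group may be named. Others were chosen after their values were seen, such as the list members set beside these for contrast, and neighbours of called genes. Alternatives were other pseudocounts, scalings, filters, models and libraries. Libraries of the other 3 genotypes enter only the models of 10 and of 8 libraries and the statements on mge, ida, dlg1 and the lysozyme cluster.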

Additional observations from a re-analysis of the deposited data

How the results depend on the processing

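With 2 libraries a group, counts of called genes moved with most settings. Of the 51 genes called among those above the floor in all 4 libraries, none changed sign under any setting. The count was 30 without a pseudocount, 23 with a pseudocount of 5, 9 after quantile normalization, 7 after median centring and 26 with a mean of at least 5 FPKM. It ran from 8 to 79 when 1 library was left out, and was 4 without both replicate 1 libraries in a model of the other 8, an alternative chosen after seeing the data. The count stayed within 1.5 times with all 10 libraries in one model (43), with the limma trend (63) and without overlapping genes (34). The genes changed, however, since 35 of the 43 and 48 of the 63 were among the 51. In the model of 10 libraries LysC, IM1 and CG5791 did not pass (limma, adjusted p = 0.136, 0.122 and 0.263). Of the 51, LysD, LysB, LysE and IM3 were called under each setting of this fit that kept all 4 libraries and tested them. This holds only among genes above the floor in all 4 libraries. In the fit over all 10983 genes IM3 was not called (limma, adjusted p = 0.148). Over all genes above the floor in at least 1 library, the 4 calls became 0 without a pseudocount (368 at an unadjusted p under 0.05), after quantile normalization (409) and with the limma trend (387). They became 2 after centring, 40 in the model of 10 libraries, 9 with a mean of at least 5 FPKM and 48 without both replicate 1 libraries. Leaving out any 1 library left 0 calls by limma, where between 293 and 414 genes had an unadjusted p under 0.05.

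Same-numbered libraries of atf3[76] and y w deviated together (r = 0.547 across genes). Over the other pairs of genotypes r ran between −0.49 and 0.55, and the labels do not say that a number marks a shared culture or day. On log2(FPKM + 1), the replicate 1 libraries of atf3[76] and y w correlated at 0.962 and the replicate 2 libraries at 0.959. Within a genotype the correlation was lower, at 0.950 in y w and 0.936 in atf3[76]. The main fits did not take the number into account. With the number as a replicate block, 224 genes were called among those above the floor in all 4 libraries, 171 higher and 53 lower, with all 51 among them, and 34 over all genes. The genes at the floor in both y w libraries numbered 92, and 14 with at least 5 FPKM in both atf3[76] libraries or 61 without overlapping genes. The reverse count of 30 became 5 and 18. The causes were not tested. Read totals are unknown, so the precision of genes near the floor cannot be given.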
